A study of Rattus norvegicus with 9 samples.

Results

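The genes described here encode the proteins of the cytosolic ribosome. They were chosen by symbol, as the symbols that start with Rpl or Rps and a digit, or with Rplp or Rpsa, without the Rps6k kinases and the Rps19bp1-like binding proteins. This choice was made with earlier results of these data known. The rule found 91 of the 12609 symbols in the table, and 86 of the 10180 that reached 1 TPM in at least 3 of 9 libraries. TPM is a transcript's length-scaled share of a library, summed here over all table rows of a symbol. Of the 91, 77 are canonical ribosomal proteins, 46 of the large and 31 of the small subunit, and 14 are paralogs, like-named copies or pseudogene entries. The 5 symbols under the minimum were the canonical Rpl7a, at no more than 3.84e-05 TPM in any library, the paralog Rpl3l and the pseudogene entries Rpl23a-ps20, Rpl32-ps3 and Rps7-ps20. Rpl7a rests on 2 table rows, and whether its near absence lies in the tissue or in the table's annotation was not tested. Just above the minimum lay Rps14-ps7 with a mean of 0.792 TPM and Rpl39l with 2.02 TPM, and just below it lay Rpl3l with 0.625 TPM.

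The study measured bulk RNA of rat brain in 3 groups of 3 libraries. IR+NMN rats had middle cerebral artery occlusion (MCAO), a model of ischemic stroke, and an injection in saline of 100 mg/kg NMN, nicotinamide mononucleotide, from which cells make the coenzyme NAD. IR rats had the occlusion and carry PBS as their treatment label. Sham rats had the surgery without the occlusion and carry the same PBS label. For strain, age, brain region, time after surgery and injection time, no value is given in the sources used here. Nothing in the labels ties a library to its own animal, and a p-value thus covers the spread between these libraries alone, which may be technical.

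A ribosome joins a small subunit, which reads the mRNA, to a large subunit, which forms the peptide bonds and holds the tunnel through which the new protein leaves. Each ribosomal protein is needed in about equal copies, and cells make them from very abundant mRNAs that carry a run of pyrimidines at their start, the terminal oligopyrimidine or TOP element. Through this element, TOR signalling sets mainly how strongly these mRNAs are translated, which a measurement of RNA does not show.

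That pyrimidine run is the sequence feature the family is known for, so start windows of members with called or contrasting values are printed here. Each window spans 15 bases on either side of the RefSeq transcription start in the rat assembly GRCr8 and is written 5′ to 3′ on the transcribed sense. Capitals mark any match to 3 pyrimidine-rich words, which are CTTTC, then CTCTTT, which can overlap it, and finally CTTCC. Rpl28 (chr1:78083518-78083547, minus strand), Rps13 (chr1:180009646-180009675, minus strand), Rpl22 (chr5:168117946-168117975, plus strand), Rplp1 (chr8:71290858-71290887, minus strand) and Rpl30l2 (chr10:37332846-37332875, minus strand) hold such a word. Rplp0 (chr12:46718376-46718405, minus strand), Rpl22l1 (chr2:113683181-113683210, plus strand) and Rps27l (chr8:76443643-76443672, plus strand) hold none of the 3 words, which does not mean that they lack a pyrimidine run of other letters.
Rpl28: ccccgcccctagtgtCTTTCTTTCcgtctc
Rps13: gccgtttcctacctcgttctCTCTTTgctt
Rpl22: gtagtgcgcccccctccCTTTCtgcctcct
Rplp1: gcaggcgcatgtgatcCTTTCctcagctgc
Rpl30l2: aaagcagttgctacacCTTTCtcgctcccc
Rplp0: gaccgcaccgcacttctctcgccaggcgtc
Rpl22l1: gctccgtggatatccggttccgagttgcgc
Rps27l: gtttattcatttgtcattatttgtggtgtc

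RefSeq gave 69 such windows for 68 of the 91 members. CTTTC stood in 29 of the 69 (42.0%), against 3.59% of all 33469 windows in the table. On the opposite strand it stood in 1 member window (1.45%), against 3.82% of all. CTCTTT stood in 16 member windows (23.2%), against 1.14% of all, and CTTCC in 21 (30.4%), against 6.05%. At least 1 of the 3 words was present in 43 member windows (62.3%), against 10.04% of all. The word TATAAA of the TATA box was in 1 member window (1.45%), against 0.514% of all. A match is a description of these letters and not a tested element, and RNA levels alone do not show whether it acts.

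The family made up 12.3%, 7.77% and 7.88% of all TPM in the 3 IR+NMN libraries, 6.30%, 9.26% and 8.93% in IR, and 6.24%, 5.82% and 7.30% in Sham. IR+NMN 1 stood above every other library, while IR 1 lay within the Sham range. The mean share was 9.30% ± 2.56 in IR+NMN, 8.16% ± 1.62 in IR and 6.45% ± 0.761 in Sham (SD, n = 3 each). The IR+NMN libraries all exceeded the Sham libraries, whereas IR overlapped both groups. Without IR+NMN 1 the mean difference between IR+NMN and IR turned to -0.342 percentage points, against 1.13 with it, and no p-value is given for this sum over members.

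**Figure D1:**
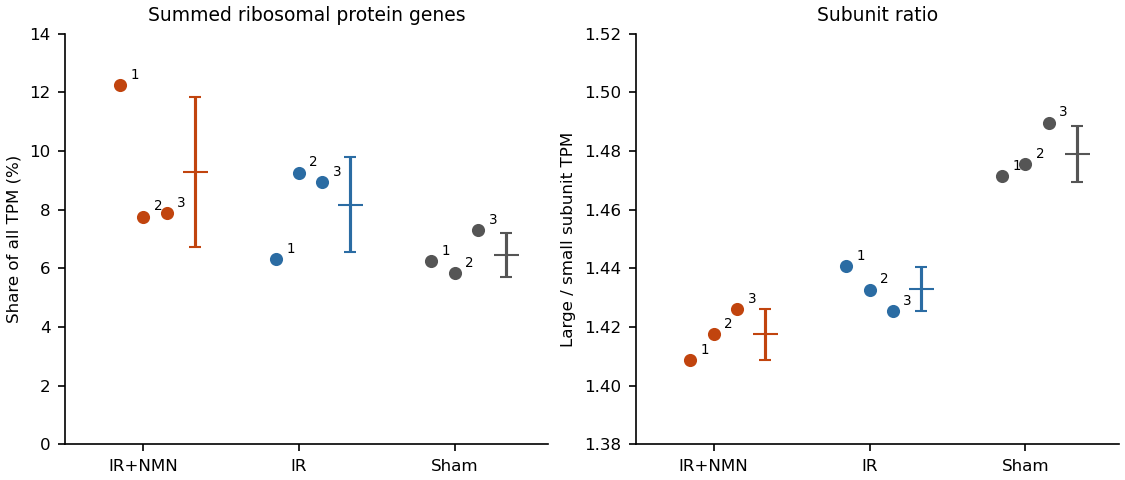
Left, the share of all TPM (%) held by the 86 ribosomal protein genes in each library; right, the summed TPM of large subunit genes over that of small subunit genes, on an axis that does not start at 0. Points are libraries numbered by replicate, and horizontal marks with bars are means with SD (n = 3): IR+NMN 1 stands at 12.3%, and the subunit ratio of every IR+NMN and IR library lies below the Sham range of 1.47 to 1.49.

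Within most libraries the canonical genes deviated from Sham in 1 direction. Of the 76 canonical genes tested, 75, 74 and 73 lay above their own Sham mean in the IR+NMN libraries, 26, 68 and 70 in the IR libraries, and 33, 4 and 74 in the Sham libraries. The libraries therefore differed as wholes, also within Sham, where Sham 2 was low and Sham 3 high for almost every gene. The median canonical gene stood at 1417, 868 and 924 TPM in IR+NMN, 703, 961 and 955 TPM in IR, and 708, 664 and 796 TPM in Sham. The order of the genes within a library hardly varied. Spearman's rho between each library and the mean of the others was 0.970 to 0.993 across these 76 genes, a description whose points share a library and its scaling. Rpl41, which encodes the smallest ribosomal peptide, was highest in every library, with 7000, 3793 and 3904 TPM in IR+NMN, 3126, 5394 and 5201 TPM in IR, and 2939, 2608 and 3849 TPM in Sham.

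**Figure D2:**
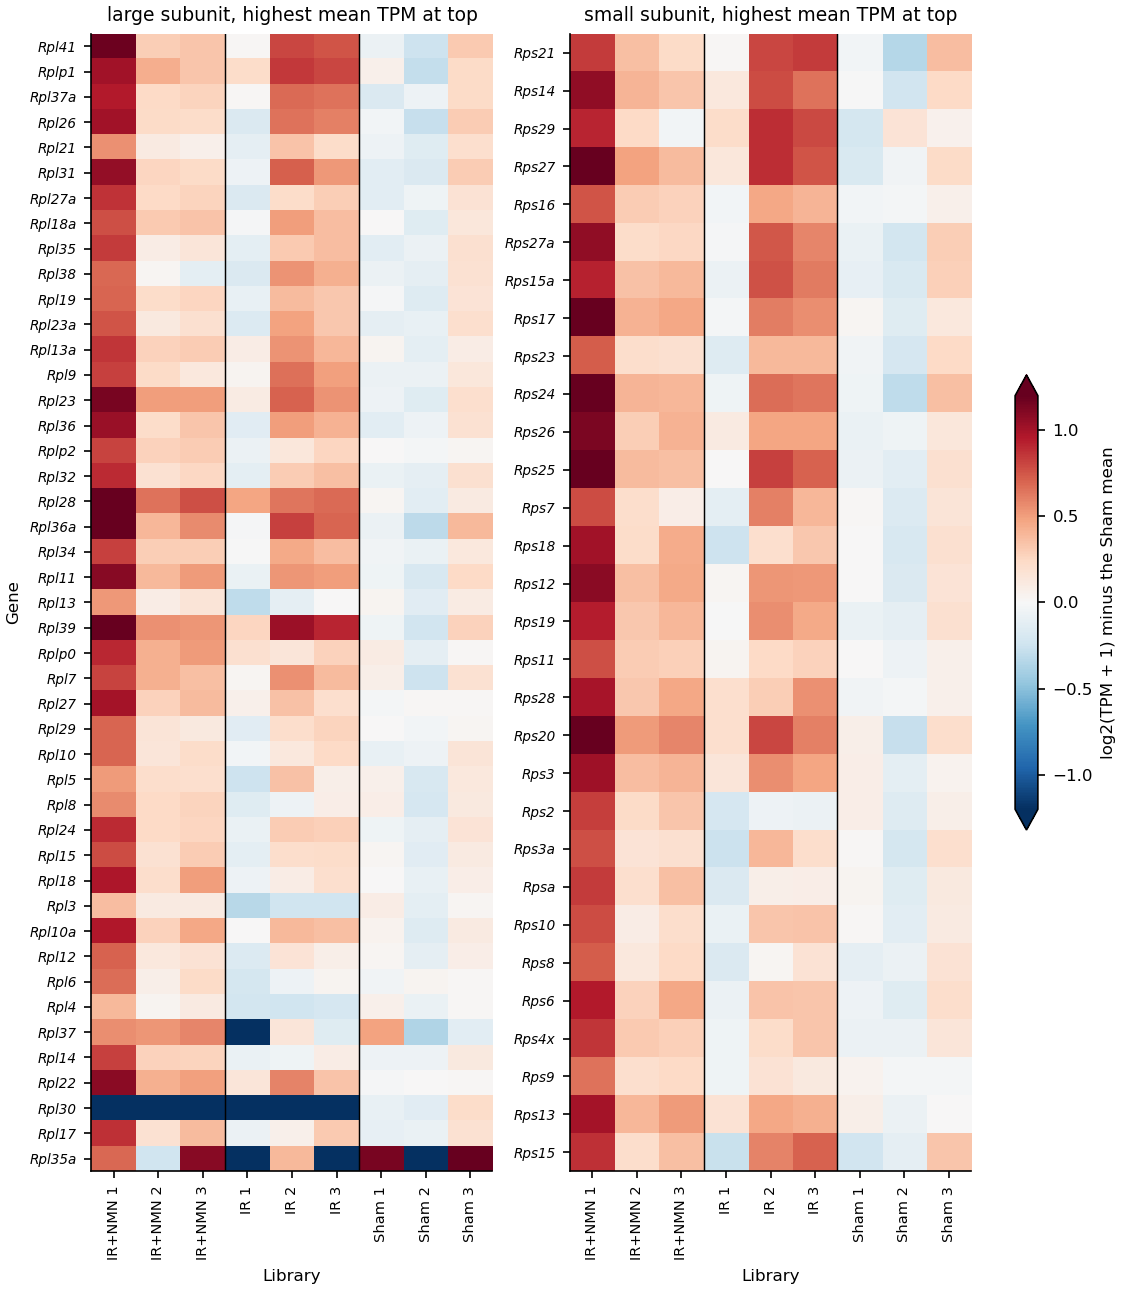
Each row is one of 75 of the 76 canonical genes above the minimum, since 1 is not reported here, ordered by mean TPM within its subunit, and each column a library. Colour is log2(TPM + 1) minus the gene's Sham mean, cut at the ends of the scale: columns such as IR+NMN 1 are coloured nearly throughout, while Rpl30, Rpl37 and Rpl35a depart from their neighbours.

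Oligodendrocyte and neuronal markers ran opposite to the family's share across libraries. The 3 libraries with the highest share had the lowest summed TPM of 6 oligodendrocyte markers, 3464 in IR+NMN 1, 4168 in IR 2 and 3961 in IR 3, while the other 6 libraries held 5693 to 12479. The neuronal sum was lowest in IR+NMN 1, at 3170 TPM. It was highest where the share was lowest, at 5859 TPM in IR 1, 5370 in Sham 1 and 5692 in Sham 2. Endothelial sums leaned the same way, from 79.7 TPM in IR+NMN 1 to 152 in Sham 2, with the highest, 165, in Sham 3. Sums for macrophages, red blood cells and choroid plexus differed between the groups without following the share across libraries. The 6 macrophage markers summed to 93.3 to 897 TPM in IR+NMN, 12.7 to 36.3 TPM in IR and 11.6 to 14.3 TPM in Sham, highest in IR+NMN 1. Of these markers 5 rose in IR+NMN against Sham and 4 in IR+NMN against IR, where 4.21% and 2.3% of all genes rose. The 6 red blood cell markers summed to 825 to 1011 TPM in IR+NMN, 732 to 900 TPM in IR and 4078 to 9333 TPM in Sham. In each contrast with Sham 5 of them fell, where 5.26% of all genes fell for IR and 6.13% for IR+NMN. Markers of choroid plexus, mainly Ttr, summed to 3.62 to 6.70 TPM in IR+NMN, 0.876 to 1.10 TPM in IR, where Clic6 was at 0, and 24.6 to 42.3 TPM in Sham. The 7 neuronal markers summed to 3170 to 4093 TPM in IR+NMN, 3638 to 5859 TPM in IR and 4488 to 5692 TPM in Sham. Of these 7, 2 fell in IR+NMN against Sham, where 6.13% of all genes fell. The 6 astrocyte markers summed to 4526 to 6297 TPM in IR+NMN, 1636 to 4526 TPM in IR and 1058 to 2354 TPM in Sham. Of these 6, 1 rose in IR+NMN against Sham, where 4.21% of all genes rose. Most of the list went the other way from the sum. In that contrast 2 fitted changes were positive and 4 negative, with a median of -0.59 and a largest value of 3.01. In IR+NMN against IR 1 was positive and 5 were negative, with a median of -0.50. The 5 endothelial markers in the table, of 6 listed, summed to 79.7 to 114 TPM in IR+NMN, 82.4 to 102 TPM in IR and 119 to 165 TPM in Sham. Of these 5, 2 fell in IR against Sham and 2 in IR+NMN against Sham, where 5.26% and 6.13% of all genes fell. The 6 microglia markers summed to 273 to 358 TPM in IR+NMN, 321 to 326 TPM in IR and 260 to 301 TPM in Sham. Of these 6, 1 rose in IR against Sham, where 1.14% of all genes rose, and 3 fitted changes were positive and 3 negative. In IR+NMN against Sham 1 rose and 2 fell, where 4.21% and 6.13% of all genes did so. The part of these cell types in the family's values was not tested. In bulk tissue, fewer cells of a type and less RNA per cell cannot be told apart.

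In IR against Sham the fitted changes of the canonical genes were mostly positive, but 0 of the 76 were called higher and 1 was called lower. Every change below is a difference of log2(TPM + 1) fitted with limma, with Benjamini-Hochberg adjustment over all 10180 genes. Of the 86 members 2 rose, Rpl30l2 and Rpl12a-ps1, and 1 fell, Rpl30, where 1.14% of all genes tested rose and 5.26% fell. At an unadjusted p under 0.05 the number was 9 of 86, against 28.3% of all genes. The fitted change was positive for 65 of 76 canonical genes, and its median was 0.26, against -0.21 for all genes tested. By scaling, the median ran from 0.15 with quantile scaling to 0.48 with median-of-ratios scaling, and without IR 1 it was 0.41. The IR libraries lay wholly above Sham for 13 of the 86 members and wholly below for 4, where 7.58% and 26.7% of all genes did so. With the log values centred on the family's median in each library, Rpl30l2 was still called higher and Rpl30 lower, where 0.0884% and 0.363% of all genes were, and Rpl12a-ps1 was not called. The call of Rpl30l2 was lost without Sham 1, Sham 2, IR 2 or IR 3, with an adjusted p of at most 0.0825 in limma, and 1 member, Rpl30, was then called. Without IR+NMN 1, which bears only on the spread in this contrast, 5 members were called.

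IR+NMN against IR gave 0 called members with limma. Among all genes tested 2.3% rose and 0.0589% fell. At an unadjusted p under 0.05 the number was 13 of 86, against 13.3% of all genes, and no other tool was run. The fitted change was positive for 70 of the 76 canonical genes, and its median was 0.26, against 0.041 for all genes. This median was 0.049 without IR+NMN 1 and 0.10 without IR 1. The IR+NMN libraries lay wholly above IR for 17 of the 86 members and wholly below for 0, where 13.7% and 3.22% of all genes did so. Without IR+NMN 2, Rps27l passed the threshold.

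IR+NMN against Sham gave the largest number of calls, on contrasts that share libraries with the previous comparisons. Of the 86 members 7 rose and 1 fell, where 4.21% of all genes rose and 6.13% fell. Among those that rose were Rpl30l2, Rps27l, Rpl12a-ps1, Rpl28, Rplp0 and Rps13, and Rpl30 fell. The fitted change was positive for 75 of the 76 canonical genes, with a median of 0.48, against -0.14 for all genes. The median was 0.39 to 0.63 by scaling and 0.29 without IR+NMN 1. The IR+NMN libraries lay wholly above Sham for 58 of the 86 members and wholly below for 1, where 13% and 20.4% of all genes did so. Relative to the family's median, 3 members were called, Rpl30l2 and Rpl12a-ps1 higher and Rpl30 lower, where 0.756% and 7.99% of all genes were. The count of 8 became 5 when IR+NMN 1, IR+NMN 3, IR 2, IR 3, Sham 1 or Sham 3 was left out, 4 without Sham 2 and 22 without IR+NMN 2.

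Among the large subunit genes, Rpl30 fell and its copy Rpl30l2 rose in both contrasts with Sham. Rpl30 encodes a large subunit protein, and Rpl30l2 is a like-named entry on chromosome 10. Rpl30 had 22.1, 12.3 and 15.5 TPM in IR+NMN, 18.8, 18.2 and 17.3 TPM in IR, and 425, 411 and 525 TPM in Sham. Rpl30l2 had 1226, 735 and 750 TPM in IR+NMN, 620, 1113 and 954 TPM in IR, and 253, 254 and 346 TPM in Sham. Sham thus stood apart from the other 6 libraries for both, in opposite directions.

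The fitted change of Rpl30 was -4.56 in IR against Sham (SE 0.19, adjusted p = 7.47e-06, limma) and -4.72 in IR+NMN against Sham (adjusted p = 6.06e-06, limma). That of Rpl30l2 was 1.63 in IR against Sham (SE 0.27, adjusted p = 0.0165, limma) and 1.64 in IR+NMN against Sham (adjusted p = 0.00892, limma). Added together, the pair gave 1248, 747 and 766 TPM in IR+NMN, 638, 1131 and 972 TPM in IR, and 678, 665 and 871 TPM in Sham, and the groups overlapped. What differed was the split, since Rpl30l2 held 98.2%, 98.4% and 98.0% of the pair in IR+NMN, 97.1%, 98.4% and 98.2% in IR, and 37.3%, 38.2% and 39.8% in Sham.

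Table rows of Rpl30 show the same pattern, and the pair is therefore reported as uncertain. A set of 3 Rpl30 rows carried identical values of 94.9, 60.4 and 91.6 TPM each in Sham and 0 in all IR+NMN and IR libraries. Another Rpl30 row held 1.99, 3.31 and 3.54 TPM in IR+NMN, 0, 0.550 and 2.05 TPM in IR, and 121, 206 and 148 TPM in Sham. Rpl30l2 rests on a single row. The sources used here do not give how the authors' counting divided reads between near-identical copies, and its part in the split was not tested.

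Rpl23a, whose protein sits by the tunnel exit, had the same kind of row without a difference in sum. Its rows present only in Sham were led by one with 495, 298 and 595 TPM in Sham and 0 in the other 6 libraries. The main other row held 1635, 1054 and 1111 TPM in IR+NMN, 869, 1356 and 1216 TPM in IR, and 381, 366 and 498 TPM in Sham. Summed, Rpl23a had 1642, 1057 and 1115 TPM in IR+NMN, 871, 1361 and 1219 TPM in IR, and 903, 915 and 1121 TPM in Sham, and the groups overlapped. Rpl27a also had 1 row present only in Sham, and Rplp0 and Rplp1 had 1 small row each present only in IR. A present row here has at least 1 TPM, against under 0.1 TPM elsewhere. A wider limit chosen after seeing the data, under 1 TPM against at least 10 TPM, also found rows of Rpl19 and Rpl28. The Rpl19 row held 793, 530 and 564 TPM in IR+NMN, 443, 609 and 596 TPM in IR, and 0.696, 0 and 0.464 TPM in Sham. Summed, Rpl19 had 1717, 1232 and 1265 TPM in IR+NMN, 993, 1379 and 1327 TPM in IR, and 1052, 954 and 1186 TPM in Sham, and IR overlapped both other groups.

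**Figure D3:**
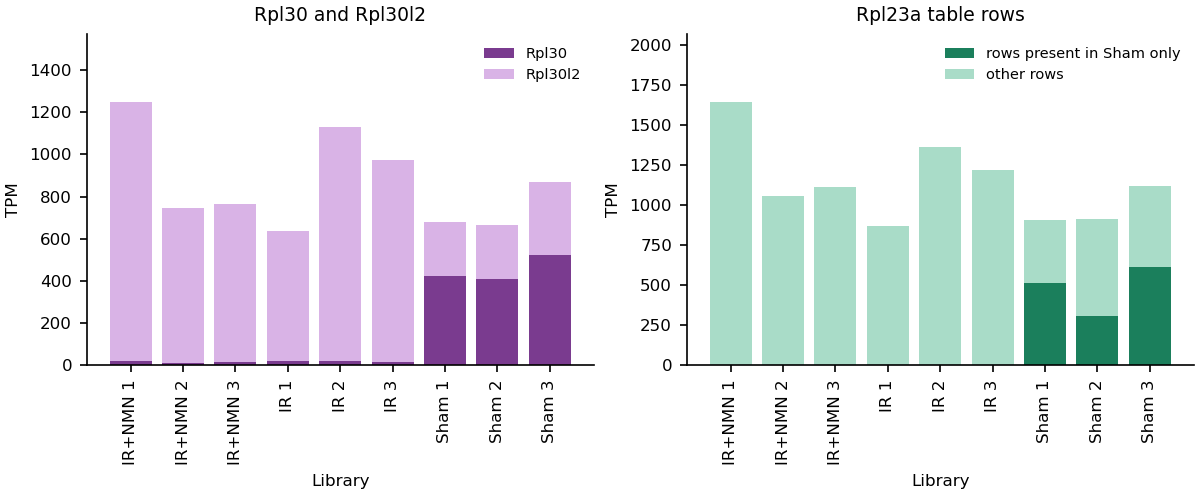
Stacked bars give TPM per library for Rpl30 with its copy Rpl30l2 (left) and for the table rows of Rpl23a (right). In Sham the dark segments, Rpl30 and the Sham-only rows of Rpl23a, hold a large part of each bar, while in IR+NMN and IR they are at or near 0 and the bar heights of the groups overlap.

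Rpl12a-ps1, a pseudogene-named entry for the stalk-base protein Rpl12, had 386, 218 and 234 TPM in IR+NMN, 181, 251 and 241 TPM in IR, and 99.7, 110 and 116 TPM in Sham. It rose by 1.03 in IR against Sham (SE 0.22, adjusted p = 0.0339, limma) and by 1.31 in IR+NMN against Sham (adjusted p = 0.00961, limma). Its rows were unstable, however, with the main row at 97.2, 0.723 and 62.4 TPM in the Sham libraries, and the fit on the highest row alone called neither (adjusted p = 0.135 and 0.0977, limma). The call in IR against Sham was also lost when any of the 3 Sham libraries, IR+NMN 3, IR 2 or IR 3 was left out, with an adjusted p of at most 0.142 in limma. Rpl12 itself had 653, 438 and 452 TPM in IR+NMN, 358, 450 and 419 TPM in IR, and 408, 373 and 423 TPM in Sham.

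Rpl28, whose product lies on the outer face of the large subunit, had the smallest adjusted p among the canonical genes that rose in IR+NMN against Sham. It had 1509, 974 and 1059 TPM in IR+NMN, 859, 966 and 996 TPM in IR, and 630, 567 and 667 TPM in Sham. All 6 libraries with occlusion exceeded all Sham libraries, and IR+NMN overlapped IR. It rose by 0.90 in IR+NMN against Sham (SE 0.17, adjusted p = 0.0159, limma), a 1.90-fold ratio of mean TPM, a call lost without Sham 2 (adjusted p = 0.0748, limma). The change of 0.60 in IR against Sham did not pass (adjusted p = 0.0697, limma), but passed without IR+NMN 1 (adjusted p = 0.0297, limma) and with quantile scaling (adjusted p = 0.0408, limma). Its rows were unstable too, since 1 of them held at most 0.657 TPM in the 6 libraries with occlusion, against 135, 111 and 150 TPM in Sham. How the counting divided reads between its rows was not tested.

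Rplp0, Rplp1 and Rplp2 build the stalk that recruits the translation factors which hydrolyse GTP. Rplp0, the base of the stalk, had 1144, 819 and 873 TPM in IR+NMN, 699, 675 and 740 TPM in IR, and 653, 566 and 617 TPM in Sham, with no overlap between any of the groups. It rose by 0.61 in IR+NMN against Sham (SE 0.15, adjusted p = 0.0328, limma), a call lost without each library in turn except IR 1 and IR+NMN 2 (adjusted p up to 0.133, limma). The tip protein Rplp1 had 3648, 2451 and 2279 TPM in IR+NMN, 2109, 3255 and 3155 TPM in IR, and 1889, 1484 and 2121 TPM in Sham. Its 0.62 in IR against Sham did not pass (adjusted p = 0.141, limma). Of the stalk and its base, counted as 4 genes with Rpl12, all 4 lay wholly above Sham in IR+NMN, as did 58 of the 86 members and 13% of all genes.

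Rpl3, near the peptidyl transferase centre, and Rpl4, which lines the exit tunnel, went against the lean of the family in IR. Rpl3 had 632, 526 and 529 TPM in IR+NMN, 389, 413 and 413 TPM in IR, and 522, 450 and 497 TPM in Sham. Rpl4 had 558, 438 and 461 TPM in IR+NMN, 367, 361 and 372 TPM in IR, and 445, 405 and 431 TPM in Sham. For both genes all IR libraries lay below all libraries of the other groups. The fitted values in IR against Sham were -0.27 for Rpl3 (adjusted p = 0.174, limma) and -0.22 for Rpl4 (adjusted p = 0.255, limma), and neither passed. With median-of-ratios scaling the value of Rpl4 was 0.0021, so its sign depends on the scaling. In IR+NMN against IR the value of Rpl3 was 0.47 (SE 0.12, adjusted p = 0.0893, limma), the smallest adjusted p among the canonical genes.

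Rpl39, another protein of the tunnel wall, leaned the other way. It had 1404, 724 and 716 TPM in IR+NMN, 593, 1013 and 936 TPM in IR, and 479, 423 and 600 TPM in Sham. IR overlapped Sham in 1 library, and the value of 0.74 did not pass (adjusted p = 0.153, limma).

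Rpl39l, the paralog of Rpl39, was at low levels, with 4.91, 0.253 and 1.58 TPM in IR+NMN, 2.32, 2.31 and 5.99 TPM in IR, and 0.272, 0 and 0.531 TPM in Sham. All IR libraries lay above all Sham libraries, and IR+NMN overlapped both groups. Its value of 1.77 in IR against Sham was the largest positive one among the members tested, and it did not pass (SE 0.52, adjusted p = 0.0735, limma). It passed with the 2 groups fitted alone (adjusted p = 0.0329, limma) and without IR+NMN 1 or IR+NMN 2 (adjusted p = 0.0350 and 0.0332, limma), and with any other library left out it did not (adjusted p up to 0.229, limma).

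Rpl22, known in mouse for a role in T cell development, and its paralog Rpl22l1 are known to substitute for each other in the ribosome. Rpl22 had 597, 378 and 396 TPM in IR+NMN, 311, 425 and 358 TPM in IR, and 279, 282 and 284 TPM in Sham. The IR+NMN and IR libraries all exceeded Sham, and the value of 0.67 in IR+NMN against Sham did not pass (adjusted p = 0.0548, limma), though it did without IR+NMN 2 (adjusted p = 0.0293, limma) and with quantile scaling (adjusted p = 0.0450, limma). Rpl22l1 held 38.9%, 28.6% and 30.5% of the pair in IR+NMN, 34.4%, 36.9% and 42.0% in IR, and 32.5%, 29.9% and 36.1% in Sham, and the groups overlapped.

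Rpl37 and Rpl35a had the largest standard errors of the canonical genes in IR against Sham, 0.39 and 1.24 in limma. Rpl37 had 570, 558 and 581 TPM in IR+NMN, 134, 428 and 348 TPM in IR, and 540, 301 and 353 TPM in Sham, so that IR 1 was low and IR+NMN stood above both groups. Its value of 1.07 in IR+NMN against IR did not pass (adjusted p = 0.255, limma). The like-named Rpl37l1 was far more abundant, with 3864, 2268 and 2159 TPM in IR+NMN, 2135, 3627 and 3577 TPM in IR, and 1801, 1890 and 2654 TPM in Sham. Reads shared by these copies could be split either way, and both are reported as uncertain. Rpl35a had 14.3, 7.04 and 19.2 TPM in IR+NMN, 1.41, 11.4 and 2.10 TPM in IR, and 19.9, 0.00 and 40.0 TPM in Sham, the widest spread within groups among the canonical genes.

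The 31 small subunit genes spanned a narrow range of changes. They had a median change of 0.34 in IR against Sham, 0.25 in IR+NMN against IR and 0.56 in IR+NMN against Sham. In that last contrast their values ran from 0.36 to 0.83, and 22 of the 31 lay wholly above Sham, where 13% of all genes did. The 45 large subunit genes had medians of 0.20, 0.27 and 0.47 in the same contrasts, ran from -4.72 to 0.90 in IR+NMN against Sham, and 31 of them lay wholly above Sham there. The value of -4.72 is that of Rpl30, whose split with Rpl30l2 is uncertain. Without Rpl30 the lowest large subunit value in that contrast was 0.18, for Rpl4.

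Rps13, a protein of the platform side, had 809, 534 and 578 TPM in IR+NMN, 457, 559 and 543 TPM in IR, and 424, 385 and 406 TPM in Sham. All 6 libraries with occlusion exceeded Sham, and IR+NMN overlapped IR. It rose by 0.64 in IR+NMN against Sham (SE 0.17, adjusted p = 0.0465, limma). The call was lost without each library in turn except IR 1 and IR+NMN 2 (adjusted p up to 0.159, limma), and with median-of-ratios scaling (adjusted p = 0.0635, limma).

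Rps2, at the mRNA entry, had 1350, 886 and 956 TPM in IR+NMN, 658, 725 and 723 TPM in IR, and 799, 682 and 796 TPM in Sham. IR+NMN stood above the other groups, and the value of 0.58 in IR+NMN against IR did not pass (adjusted p = 0.135, limma). Rps6, the protein that S6 kinases phosphorylate downstream of TOR, had 1097, 684 and 783 TPM in IR+NMN, 539, 719 and 711 TPM in IR, and 541, 513 and 654 TPM in Sham. Its value of 0.56 in IR+NMN against Sham did not pass (adjusted p = 0.102, limma), though it did without IR+NMN 2 (adjusted p = 0.0448, limma).

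Rps27l, a paralog of Rps27 known in human cells as a target of p53, was the member with the smallest adjusted p in IR+NMN against IR. It had 59.2, 29.3 and 40.5 TPM in IR+NMN, 20.2, 22.7 and 17.9 TPM in IR, and 13.96, 17.1 and 13.85 TPM in Sham. The 3 groups did not overlap. It rose by 1.41 in IR+NMN against Sham (SE 0.23, adjusted p = 0.0085, limma), and its 0.997 in IR+NMN against IR did not pass (adjusted p = 0.0667, limma). Without IR+NMN 2 that value was 1.24 and passed (adjusted p = 0.00988, limma).

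Rps27 had 2783, 1591 and 1483 TPM in IR+NMN, 1256, 2104 and 1925 TPM in IR, and 1005, 1105 and 1340 TPM in Sham. Rps27l made up 2.08%, 1.81% and 2.66% of the pair in IR+NMN, 1.58%, 1.07% and 0.923% in IR, and 1.37%, 1.53% and 1.02% in Sham. IR+NMN thus lay above both other groups in this share, and IR overlapped Sham. Relative to the family's median, the change of Rps27l in IR+NMN against Sham was 0.88 (adjusted p = 0.0698, limma) and did not pass. Macrophage and proliferation markers were also highest in the 3 IR+NMN libraries, the 4 proliferation markers summing to 9.51 to 14.8 TPM in IR+NMN, 2.84 to 4.21 TPM in IR and 6.15 to 9.14 TPM in Sham. Their part in the Rps27l value was not tested.

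The balance of the subunits differed slightly. Summed large subunit TPM over summed small subunit TPM was 1.41, 1.42 and 1.43 in IR+NMN, 1.44, 1.43 and 1.43 in IR, and 1.47, 1.48 and 1.49 in Sham. All 6 libraries with occlusion lay below all 3 Sham libraries, with mean log2 differences of -0.061 for IR+NMN and -0.045 for IR. Without Rpl30 and Rpl30l2 these differences were -0.058 and -0.045, and with the canonical genes alone they were -0.071 and -0.082. The canonical set keeps Rpl30 and Rpl37 but drops Rpl30l2 and Rpl37l1, so it takes in the uncertain splits of these pairs. IR+NMN and IR overlapped, and with the canonical genes alone the difference between them was 0.012, against -0.016 with all members. No p-value is given for these sums, and 3 libraries against 3 could not reach below 0.1.

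How far a gene moved went with how abundant it was. Across the 76 canonical genes, Spearman's rho between mean TPM and the fitted change was 0.62 in IR against Sham, -0.64 in IR+NMN against IR and 0.14 in IR+NMN against Sham. The points share their libraries, the level is a mean over the libraries compared, and the first 2 contrasts share the IR libraries. The 25 most abundant genes, above 1086 TPM, had a median change of 0.38 in IR against Sham, and the 25 least abundant, below 726 TPM, had 0.10. In IR+NMN against IR these medians were 0.12 for the abundant and 0.32 for the less abundant genes. In single libraries, rho between level and deviation from Sham ranged from 0.30 to 0.62 in IR, from -0.17 to 0.32 in IR+NMN and from -0.35 to 0.42 in Sham, so that libraries of 1 group differed in it too.

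**Figure D4:**
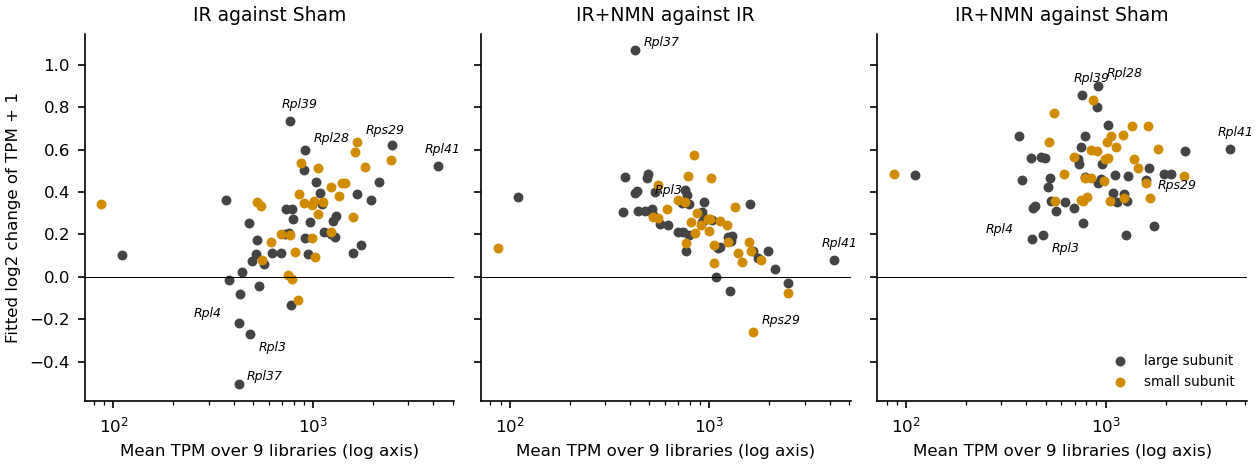
Each point is one of 74 canonical genes (Rpl30 and Rpl35a are left out), with mean TPM over 9 libraries on a log axis and the fitted log2 change of TPM + 1 on the other. The cloud slopes upward in IR against Sham, downward in IR+NMN against IR and lies flat above 0 in IR+NMN against Sham.

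Other ribosomal components and translation factors were read from lists that were chosen with earlier results of these data known. Fau, which encodes a small subunit protein fused to a ubiquitin-like domain, and Rack1, a scaffold on the small subunit, are components without an Rpl or Rps symbol. Neither passed in any contrast, with values of 0.28 for Fau and 0.46 for Rack1 in IR+NMN against Sham. Of 9 other TOP mRNAs, 0 passed in IR against Sham, where 1 had an unadjusted p under 0.05, against 28.3% of all genes. Vim, an intermediate filament gene, was the 1 that rose in IR+NMN against IR, by 2.32 (adjusted p = 0.0252, limma), where 2.3% of all genes rose. Tpt1 and Vim rose in IR+NMN against Sham, by 0.62 and 1.54 (adjusted p = 0.0287 and 0.0406, limma), where 4.21% of all genes rose. Leaving out 1 library ended these calls for Vim in both contrasts (IR 2, IR 3, IR+NMN 1 or IR+NMN 3, and against Sham also Sham 1 or Sham 2, with an adjusted p of at most 0.148 in limma). Vim in IR+NMN against IR also missed the threshold with quantile or median-of-ratios scaling (adjusted p = 0.0560 and 0.0573, limma). A library left out ended the call of Tpt1 for Sham 2, Sham 3, IR 3, IR+NMN 1 or IR+NMN 3 (at most 0.124). The median of the 9 was -0.024 in IR against Sham, 0.25 in IR+NMN against IR and 0.44 in IR+NMN against Sham. Medians of all genes tested were -0.21, 0.041 and -0.14 in the same order.

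Elongation and initiation factors had median changes of -0.21 and -0.09 in IR against Sham, against -0.21 for all genes tested. Of 9 elongation genes 1 fell in IR against Sham, where 5.26% of all genes tested fell. This was Eef2k, the kinase that inhibits elongation factor eEF2. It had 4.51, 7.37 and 4.96 TPM in IR+NMN, 6.10, 5.14 and 6.02 TPM in IR, and 19.2, 19.2 and 16.7 TPM in Sham, and all 6 libraries with occlusion lay below Sham. Its change was -1.52 in IR against Sham (adjusted p = 0.00331, limma) and -1.57 in IR+NMN against Sham (adjusted p = 0.00221, limma). Of 37 initiation genes 1 fell in IR against Sham, Eif2s1, the regulated subunit of eIF2, by 0.87 (log2 change -0.87, adjusted p = 0.00804, limma), with 24.9 to 30.4 TPM in IR+NMN, 24.8 to 26.5 TPM in IR and 44.0 to 52.1 TPM in Sham. Against the 5.26% of all genes that fell, 1 of 37 does not set this list apart. Pabpc1, the poly(A)-binding protein, and Eif3d were the 2 that rose in IR+NMN against IR, where 2.3% of all genes rose. Their changes were 0.66 and 0.50 (adjusted p = 0.0442 and 0.0478, limma). Eif2s2, another eIF2 subunit, rose in IR+NMN against Sham by 0.61 (adjusted p = 0.0203, limma) and Eif2s1 fell (-0.73, adjusted p = 0.00815, limma). In that contrast 4.21% of all genes rose and 6.13% fell. The initiation median in IR+NMN against Sham was 0.11, against -0.14 for all genes tested. The calls of Pabpc1 and Eif3d were each lost when any of 8 of the 9 libraries was left out, with IR 1 the exception for Pabpc1 and IR+NMN 2 for Eif3d (adjusted p up to 0.226, limma), and that of Eif2s2 without Sham 2, Sham 3, IR+NMN 1 or IR+NMN 3 (at most 0.0943). Scaling ended the calls of Pabpc1 and Eif3d as well, with an adjusted p of 0.0527 for Pabpc1 and 0.131 for Eif3d after quantile scaling and of 0.0605 and 0.172 after median-of-ratios scaling, in limma.

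Ribosome assembly and RNA polymerase I genes, serve to make and fold the rRNA. Of 43 assembly genes 3 fell in IR against Sham, namely Mdn1 (-0.94), Gnl2 (-0.61) and Wdr46 (-0.59), and 0 rose, where 5.26% of all genes fell and 1.14% rose. Ebna1bp2 rose in IR+NMN against Sham by 0.89 (adjusted p = 0.00788, limma), and Mdn1 (-0.76) and Gnl2 (-0.39) fell, where 4.21% of all genes rose and 6.13% fell. None of the 43 (0) passed with limma in IR+NMN against IR, where 12 had an unadjusted p under 0.05, against 13.3% of all genes. Of 10 RNA polymerase I genes 1 fell in IR against Sham, Taf1d (-0.61, adjusted p = 0.0413, limma), and quantile or median-of-ratios scaling ended the calls of Gnl2, Wdr46 and Taf1d in that contrast. In the same contrast these 3 calls were also lost when IR 2, IR 3 or any 1 of the Sham libraries was left out, that of Wdr46 also without IR+NMN 3 and that of Taf1d without IR 1 or IR+NMN 3, with adjusted p-values of at most 0.0877, 0.143 and 0.155 for Gnl2, Wdr46 and Taf1d in limma. Mdn1 missed the threshold without Sham 2 in both contrasts and without IR 3 in IR against Sham (at most 0.0573), and Gnl2 in IR+NMN against Sham held only when the library left out was IR 1 or IR+NMN 2 (otherwise at most 0.166). That call of Gnl2 was lost, too, with quantile and with median-of-ratios scaling (adjusted p = 0.195 and 0.183, limma). The assembly median was -0.14 in IR against Sham, 0.20 in IR+NMN against IR and 0.11 in IR+NMN against Sham. For all genes tested the medians were -0.21, 0.041 and -0.14.

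In TOR signalling and growth control, 17 genes were tested. For the calls below, 1.14% of all genes rose and 5.26% fell in IR against Sham. In IR+NMN against Sham 4.21% rose and 6.13% fell, and in IR+NMN against IR 2.3% rose. Eif4ebp1, the translation repressor that TOR switches off, had 38.2, 31.8 and 36.0 TPM in IR+NMN, 26.6, 23.7 and 27.9 TPM in IR, and 16.9, 13.0 and 15.6 TPM in Sham, and the 3 groups did not overlap. It rose by 0.75 in IR against Sham (adjusted p = 0.0204, limma) and by 1.17 in IR+NMN against Sham (adjusted p = 0.00273, limma). Mtor, the kinase itself, fell in IR against Sham (-0.65, adjusted p = 0.0264, limma), a call that ended under quantile scaling and under median-of-ratios scaling. Myc, a transcription factor that drives ribosome production, had 7.88, 5.98 and 10.8 TPM in IR+NMN, 4.38, 2.38 and 3.18 TPM in IR, and 3.62, 3.098 and 3.83 TPM in Sham. It rose by 1.09 in IR+NMN against IR (adjusted p = 0.0477, limma) and by 0.998 in IR+NMN against Sham (adjusted p = 0.0293, limma). The first of these calls was lost without each library in turn except IR 1 and IR+NMN 2 (adjusted p up to 0.211, limma), and under both scalings (0.0998 with quantile, 0.0805 with median-of-ratios). Tsc2, a brake on TOR, fell in IR+NMN against Sham (-0.86, adjusted p = 0.0485, limma). Of 11 genes of the initiation block and stress response, Eif2ak4, an eIF2 kinase, fell in IR against Sham (-0.68, adjusted p = 0.0348, limma), and Gadd45a, a growth arrest gene, rose in IR+NMN against Sham (1.89, adjusted p = 0.0163, limma). With 1 library left out, Eif4ebp1 in IR against Sham and Mtor missed the threshold without Sham 2, Sham 3, IR 2 or IR 3, and Eif2ak4 also without Sham 1 (adjusted p of at most 0.0932, 0.117 and 0.124 in limma). Tsc2 and Myc against Sham missed it when IR+NMN 1, IR+NMN 3, IR 3 or any 1 of the Sham libraries was left out (at most 0.174 and 0.115), and Gadd45a without Sham 2, Sham 3 or IR+NMN 3 (at most 0.0721). The call of Eif2ak4 did not hold with quantile or median-of-ratios scaling (adjusted p = 0.135 and 0.0640, limma).

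**Figure D5:**
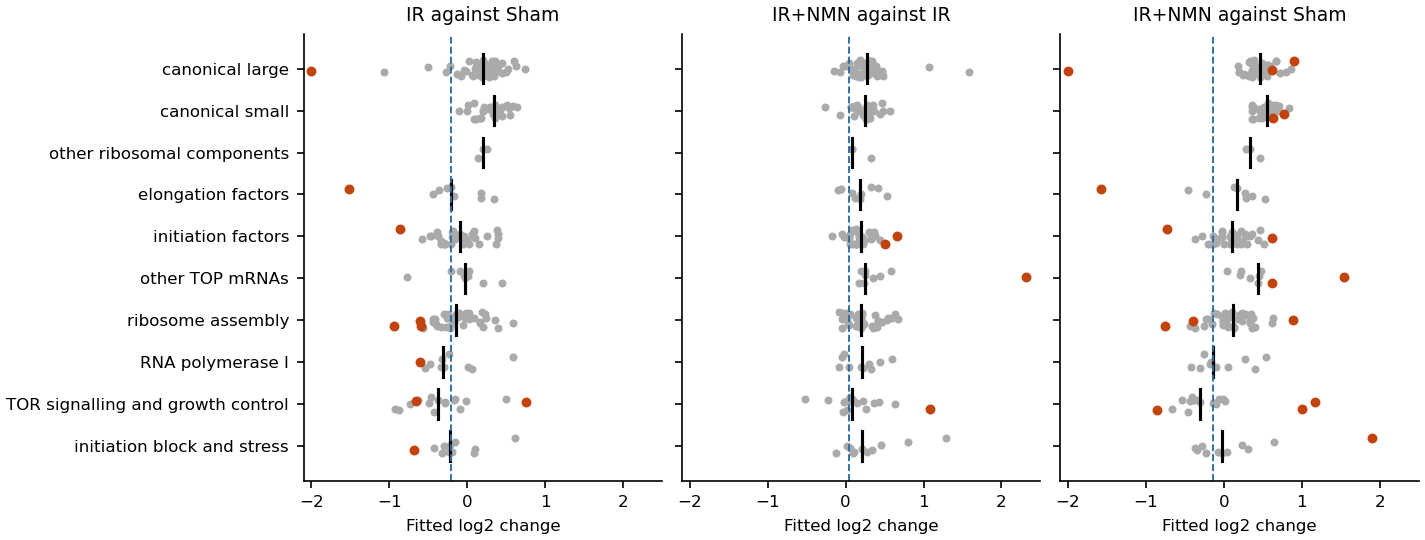
Fitted log2 changes of single genes by list in the 3 contrasts; orange points passed the threshold in limma, grey points did not, black bars are list medians and the dashed line is the median of all genes tested. Values beyond the axis, such as Rpl30 at -4.56 and -4.72, are drawn at its edge, and vertical scatter within a list has no meaning.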

How the data were processed

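Bulk RNA of 9 rat brain libraries was analysed from 1 table of TPM that the authors deposited, with no reads or counts. RNA integrity numbers down to 5.8 were accepted and Smart-Seq2 amplification was used, per the labels' protocols. STAR, Cufflinks and the human build hg38 are named, per the submitters' processing notes, although the samples are rat; the sources used here give no versions or annotation. TPM keeps no depth, so depth is unknown and no counting interval could be given. Rows with a symbol, 27683 of 131003 and 72.7% to 78.7% of a library's TPM, were used, and 1129 belonged to members. Rows were summed per symbol (Python 3.11.15, pandas 2.3.3).

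Symbols reaching 1 TPM in 3 or more libraries were fitted as log2(TPM + 1), which understates the changes of low genes, with 1 mean per group over all 9 libraries in limma 3.58.1 (R 4.3.3), with intensity trend and robust moderation. P-values were two-sided, adjusted over 10180 genes, threshold 0.05. The fit was tested on simulated data with independent noise for each gene and library. That setting lacks the shifts of whole libraries seen here, so it gives no measure of false calls under them. Permutation tests planned for the family's share and subunit ratio are not printed, because both are sums over members. Genes were named by a rule: members called, of extreme level or change, on a fixed list, or with rows present in 1 group only, plus the smallest p-values of related lists. Some single genes taken by the rule are not reported here. Members, lists and the rule were chosen with earlier results of these data known. Of the member symbols, 90 of 91 were in the GRCr8 gene table. Alternatives were other pseudocounts, filters, scalings, row choices and fits, a replicate block, and each library left out. Removing Rpl30 and Rpl30l2 from the subunit ratio, and a wider limit for rows present in some groups only, were chosen after seeing the data.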

Additional observations from a re-analysis of the deposited data

How the results depend on the processing

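The count of members called in IR against Sham was 3, became 5 with the 2 groups fitted alone and 1 with the replicate block, and ranged from 1 to 5 with a library left out. It was 1 without Sham 1, Sham 2, IR 2 or IR 3 and 5 without IR+NMN 1. In IR+NMN against IR the count was 0 and became 1 without IR+NMN 2, a range of 0 to 1. In IR+NMN against Sham the count was 8, became 3 relative to the family's median, 5 with the 2 groups fitted alone and 5 with the replicate block, and ranged from 4 to 22 with a library left out, the lowest without Sham 2 and the highest without IR+NMN 2. Rpl30 was called against Sham under every alternative run. All of them took the deposited rows as given, so none bears on how reads were divided between Rpl30 and Rpl30l2. The sum of that pair overlapped between the groups.

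The difference in the family's share of TPM between IR+NMN and IR was 1.13 percentage points, with a range of -0.342 to 1.90 when a library was left out, and it changed sign only without IR+NMN 1. The subunit ratio of IR+NMN against IR, -0.016 on the log2 scale, was 0.012 with the canonical genes alone. Among single genes, Rpl4 in IR against Sham was 0.0021 with median-of-ratios scaling, and Rpl30 in IR+NMN against IR, -0.15 in the summed rows, was 1.21 on its highest row and ranged from -0.36 to 0.035 with a library left out, positive only without IR+NMN 2. The cause was not tested.

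Nothing in the labels says whether replicate numbers pair the samples. Deviations within groups of 3 libraries sum to 0, so their correlations cannot settle it. The correlations of same-numbered libraries' deviations ran from -0.568 to 0.492, with 3 of 9 over 0.1, and the replicate block left 1 call in IR against Sham and 5 in IR+NMN against Sham. Depth is unknown for these TPM values, so low members such as Rps14-ps7 and Rpl39l cannot be given a detection limit.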
